A study of Arabidopsis thaliana with 12 samples.

Results

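EXPA7, EXPA18 and EXPA8 are 3 alpha-expansin genes of Arabidopsis thaliana, followed here on 12 expression arrays of whole seedlings 3 days old. Alpha-expansins are secreted proteins that loosen the growing cell wall at acid pH without cutting its polymers, so that the wall yields to turgor. EXPA7 and EXPA18 are known for their expression in root hair cells, where root hair transcription factors act on them and where they take part in the outgrowth of the hair. EXPA8 belongs to the alpha-expansins of elongating organs and has been used as a brassinosteroid-responsive gene of hypocotyl growth. The genes were taken by name from the array annotation, not by their values. Each has 1 probe set, which is annotated to that gene alone: 259525_at for EXPA7 (AT1G12560), 261099_at for EXPA18 (AT1G62980) and 255822_at for EXPA8 (AT2G40610). They are 3 of 13356 genes that carry a name here, and 3 of the 18 expansin genes among these.

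The arrays fall into 4 groups of 3. WT seedlings (wild type, Col-0) were either left untreated (WT_none) or given 15 mM glucose for 2 h (WT_glucose). Seedlings labelled tor mutant, a Col-0 line with an estradiol-inducible RNAi construct against TOR, were handled in the same 2 ways (tor_none and tor_glucose). TOR is a protein kinase that couples nutrients to growth, and the study asked which early glucose responses depend on it. All groups were grown for 3 days in liquid medium in low light (75 uE, 12 h photoperiod), which was meant to run down the reserves of the seed. The sources used here do not state whether WT also received estradiol, which promoter drives the construct or how many lines were tested. The inducer and the silencing therefore cannot be told apart in a comparison of the genotypes. TOR itself was not analysed here. The labels call the replicates biological and do not say what was grown separately, so the p-values speak for the scatter among these arrays, which may in part be technical.

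Levels are log2 RMA values, a normalised brightness per probe set, and 1 unit is a doubling. They can be compared between arrays for 1 gene but not between genes. A level under 5 is called dim, and the deposited values carry no detection call, so whether a dim level stands above background was not tested. Array medians ran from 6.53 to 6.86. The tor arrays had higher medians than the WT arrays, by 0.24 without glucose and by 0.18 with it, and the probe sets had a median change of 0.08 in both comparisons. On green tissue, 2 light-harvesting genes were measured and lay between 12.49 and 13.80 in every group mean. LHCB4.2 was higher in tor by 0.70 without glucose (a call kept in 7 of the 12 fits that left out 1 array) and by 0.80 with it (kept in 10), and LHCB4.1 was not called. The part of green tissue or of array brightness in the results below was not tested. None of the 12 root markers listed for the tissue check has a named probe set here, so the amount of root on each array was not measured. In whole seedlings, fewer root hair cells and less RNA per cell cannot be told apart.

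EXPA7 was lower in tor than in WT seedlings, by 4.04-fold without glucose and by 4.60-fold with it, and 2 h of glucose moved it in neither genotype beyond the spread of the arrays. On WT_none arrays 1, 2 and 3 it lay at 7.54, 6.53 and 6.44. On the WT_glucose arrays it lay at 7.39, 6.76 and 6.95. These 6 values were close to the middle of each array, with between 48.7% and 64.5% of probe sets at or below EXPA7. In tor_none the levels were 4.97, 4.73 and 4.77. In tor_glucose they were 4.92, 4.78 and 4.78. All 6 tor values were dim and stood at 26.0% to 29.4% of their arrays, and no tor array reached the lowest WT array. In order, EXPA7 lay at 7.03 ± 0.33 (SD, n = 3) in WT_glucose, 6.84 ± 0.61 in WT_none, 4.83 ± 0.08 in tor_glucose and 4.82 ± 0.13 in tor_none. Within each genotype the arrays with and without glucose overlapped, and the gap lies between the genotypes.

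The genotype difference of EXPA7 without glucose was -2.01 ± 0.26 (SE of the limma fit over 12 arrays, 95% interval -2.59 to -1.44, adjusted p = 0.000394). With glucose it was -2.20 ± 0.26 (-2.78 to -1.62, adjusted p = 0.000154). P-values are adjusted by Benjamini-Hochberg over all 22746 probe sets tested, and an adjusted p under 0.05 is called. Of these probe sets 28.2% were called between the genotypes without glucose (19.5% higher and 8.66% lower in tor) and 41.4% with glucose (25.4% higher and 16.0% lower), so a call alone is common here. Centring each array on its median turned the balance of these calls, from 69.3% to 33.0% higher in tor without glucose and from 61.3% to 41.9% with it, while EXPA7 stayed lower in tor (log2 differences of -2.26 and -2.38, adjusted p = 0.000191 and 9.15e-05). By size EXPA7 was less common: counted from the strongest drop it stood at place 140 without glucose and 176 with it. The same-numbered arrays gave drops of -2.57, -1.80 and -1.68 without glucose and -2.47, -1.97 and -2.16 with it. Every one of the 12 fits that left out an array kept both calls, at differences of -2.21 to -1.66 without glucose and -2.34 to -2.02 with it. In all such counts of fits, leaving out an array from outside the groups compared changes the SE but cannot change the difference.

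**Figure D1:**
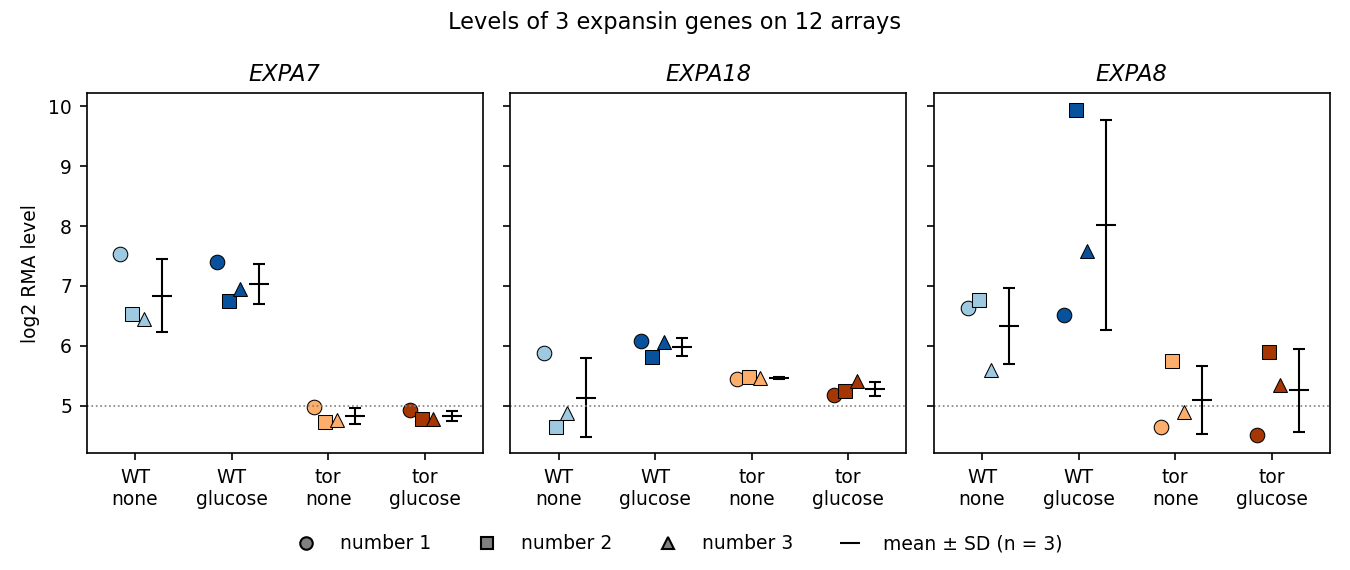
Log2 RMA level of each gene on each of the 12 arrays (vertical axis) by group, with circles, squares and triangles for replicate numbers 1, 2 and 3 and bars for the mean ± SD (n = 3). The dotted line is the level of 5 under which a probe set is called dim. EXPA7 lies under it on all 6 tor arrays, EXPA18 between 5.18 and 5.49 on all 6 tor arrays, and EXPA8 reaches 9.94 on WT_glucose array 2.

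Glucose changed EXPA7 by 0.19 ± 0.26 in WT (95% interval -0.38 to 0.77, adjusted p = 0.691), and the upper end of this interval is a 1.71-fold rise. By pair the change was -0.15, 0.23 and 0.50. WT_none array 1 is the highest EXPA7 value of all, and without it the change was 0.55 (adjusted p = 0.0466), the one fit in which this gene was called for glucose in WT. In tor the change was 0.01 ± 0.26 (adjusted p = 1.00), with pairs at -0.05, 0.05 and 0.02. With the tor arrays alone its SE was 0.11, without a call. The difference of the responses was -0.19 ± 0.37 (-1.01 to 0.63, adjusted p = 0.877). Number 1 was the highest EXPA7 array in all 4 groups.

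EXPA18, the other root hair expansin, showed a different course: its mean in WT_none was not above those in tor. As for EXPA7 and EXPA8, its mean was highest in WT_glucose. The other group means lay between 5.14 and 5.47, with the WT_none arrays widely spread. The WT_none arrays read 5.89, 4.65 and 4.87, so that numbers 2 and 3 were dim and number 1 was not. The WT_glucose arrays read 6.08, 5.81 and 6.06. In tor_none the 3 levels were 5.45, 5.49 and 5.46, and in tor_glucose they were 5.18, 5.25 and 5.40. The tor arrays thus lay between the dim WT_none pair and WT_glucose, and all 6 were below the lowest WT_glucose array. Ordered by mean, EXPA18 lay at 5.98 ± 0.15 (SD, n = 3) in WT_glucose, 5.47 ± 0.02 in tor_none, 5.28 ± 0.11 in tor_glucose and 5.14 ± 0.66 in WT_none. Of these neighbours WT_glucose and tor_none did not overlap, and neither did tor_none and tor_glucose, while the wide range of WT_none covered both tor groups. EXPA18 stood at 27.5% to 43.6% of each array, below the array median everywhere.

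With glucose EXPA18 rose in WT by 0.85 ± 0.25 (1.80-fold, 95% interval 0.29 to 1.41 on the log2 scale, adjusted p = 0.033). Of all probe sets 24.0% were called in this comparison (13.5% higher and 10.5% lower), and centring the arrays moved the share of higher ones among the calls from 56.4% to 45.6%. The pairs gave 0.20, 1.16 and 1.19, so the rise came from numbers 2 and 3, in which the untreated level was dim. The call did not survive the loss of WT_none array 2 (0.60, adjusted p = 0.127), WT_none array 3 (0.72, adjusted p = 0.119), or WT_glucose array 1 (0.80, adjusted p = 0.0893), array 2 (0.94, adjusted p = 0.0545) or array 3 (0.81, adjusted p = 0.0977). It was also lost with the arrays centred (0.76, adjusted p = 0.0577). In tor it changed by -0.19 ± 0.25 (-0.75 to 0.37, adjusted p = 1.00), with all 3 pairs below 0 at -0.27, -0.24 and -0.05. With the tor arrays alone the SE was 0.101, again without a call.

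The 2 responses of EXPA18 thus had opposite signs in every pair, and their difference was -1.03 ± 0.36 (95% interval -1.83 to -0.24). After adjustment it was not called (adjusted p = 0.13). In this comparison 5.36% of probe sets were called (1.93% with a higher and 3.44% with a lower log2 change in tor), of which 35.9% were higher, or 49.1% after centring. The difference was called without WT_none array 1 (-1.41, adjusted p = 0.00338), and when the replicate number was blocked within each genotype (adjusted p = 0.0273). Without glucose the genotypes differed by 0.33 ± 0.25 (adjusted p = 0.368), with pairs at -0.43, 0.84 and 0.58. Without WT_none array 1, EXPA18 was higher in tor by 0.70 (adjusted p = 0.00382). With glucose it was lower in tor by 0.71 on the log2 scale (-0.71 ± 0.25, 1.63-fold, 95% interval -1.27 to -0.14, adjusted p = 0.0458), and the pairs gave -0.90, -0.56 and -0.66. This call was close to the threshold and was lost in 9 of the 12 fits that left out an array. In these the difference ran from -0.79 to -0.66. The call was lost without any 1 of the WT_glucose arrays (adjusted p = 0.114, 0.0629 and 0.113). The same held for the tor_none arrays (0.0529, 0.0606 and 0.0588) and the tor_glucose arrays (0.1, 0.107 and 0.0746). It was kept with the arrays centred (adjusted p = 0.021), the replicate block (0.0297) and the compared groups alone (SE 0.13, adjusted p = 0.00586). The SE of 0.25 also holds the spread of WT_none (SD 0.66), a group outside this comparison.

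EXPA8 had the widest range of the 3 genes. The WT_none arrays gave 6.63, 6.77 and 5.60. The WT_glucose arrays gave 6.52, 9.94 and 7.58, so that number 2 stood at 91.6% of its array and number 1 at 47.9%. In tor_none EXPA8 lay at 4.65, 5.74 and 4.89, and in tor_glucose at 4.52, 5.90 and 5.34. The tor_glucose arrays were all below the WT_glucose arrays, whereas tor_none array 2 lay above WT_none array 3. The group means were 8.01 ± 1.75 (SD, n = 3) in WT_glucose, 6.33 ± 0.64 in WT_none, 5.25 ± 0.70 in tor_glucose and 5.09 ± 0.57 in tor_none, and each of these neighbours in the order overlapped. Number 2 was the highest EXPA8 array in all 4 groups. The pooled SD within groups was 1.04, at or above that of 99.2% of probe sets, against a median of 0.21 over all of them. For EXPA7 it was 0.35 and for EXPA18 0.34.

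With glucose EXPA8 was lower in tor than in WT by 6.78-fold (-2.76 ± 0.74 on the log2 scale, 95% interval -4.39 to -1.13, adjusted p = 0.0126). It stood at place 64 from the strongest drop. The pairs gave -1.998, -4.04 and -2.24. All 12 fits that left out an array kept this call (-3.51 to -1.80, adjusted p = 0.00365 to 0.0404), and the smallest size came without WT_glucose array 2. Without glucose the difference was -1.24 ± 0.74 (-2.87 to 0.39, adjusted p = 0.238), and EXPA8 was lower in tor in 3 of 3 pairs (-1.98, -1.03 and -0.71). Of the 3 genes, 1 was thus called lower in tor without glucose and 3 with it, in comparisons where 8.66% and 16.0% of all probe sets were called lower.

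In WT EXPA8 changed by 1.68 ± 0.74 with glucose (3.21-fold, 95% interval 0.05 to 3.31 on the log2 scale, adjusted p = 0.134), which was not called. The pairs gave -0.12, 3.18 and 1.99: EXPA8 hardly moved between the arrays numbered 1 and went up by 9.04-fold and 3.96-fold in the other pairs. With the replicate number as a block over all 12 arrays the rise was called (SE 0.50, adjusted p = 0.026), and with the same block over the 6 WT arrays alone it was not (SE 0.58, adjusted p = 0.0828). Without WT_glucose array 1 it was 2.43 (adjusted p = 0.0298), and without WT_glucose array 2 it was 0.72 (adjusted p = 0.431). In tor the change was 0.16 ± 0.74 (-1.47 to 1.79, adjusted p = 1.00), with pairs at -0.13, 0.16 and 0.45. This SE is shared by the groups and holds the wide spread of WT_glucose (SD 1.75). With the tor arrays alone it was 0.43, and 0.12 with the block, without a call in either fit. The difference of the responses was -1.52 ± 1.04 (-3.82 to 0.78, adjusted p = 0.507), and its pairs ran from -3.01 to -0.01. With an array left out in turn it ran from -2.27 (without WT_glucose array 1) to -0.56 (without WT_glucose array 2). A smaller response in tor was therefore not shown by the test, although the interval reaches far in that direction.

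**Figure D2:**
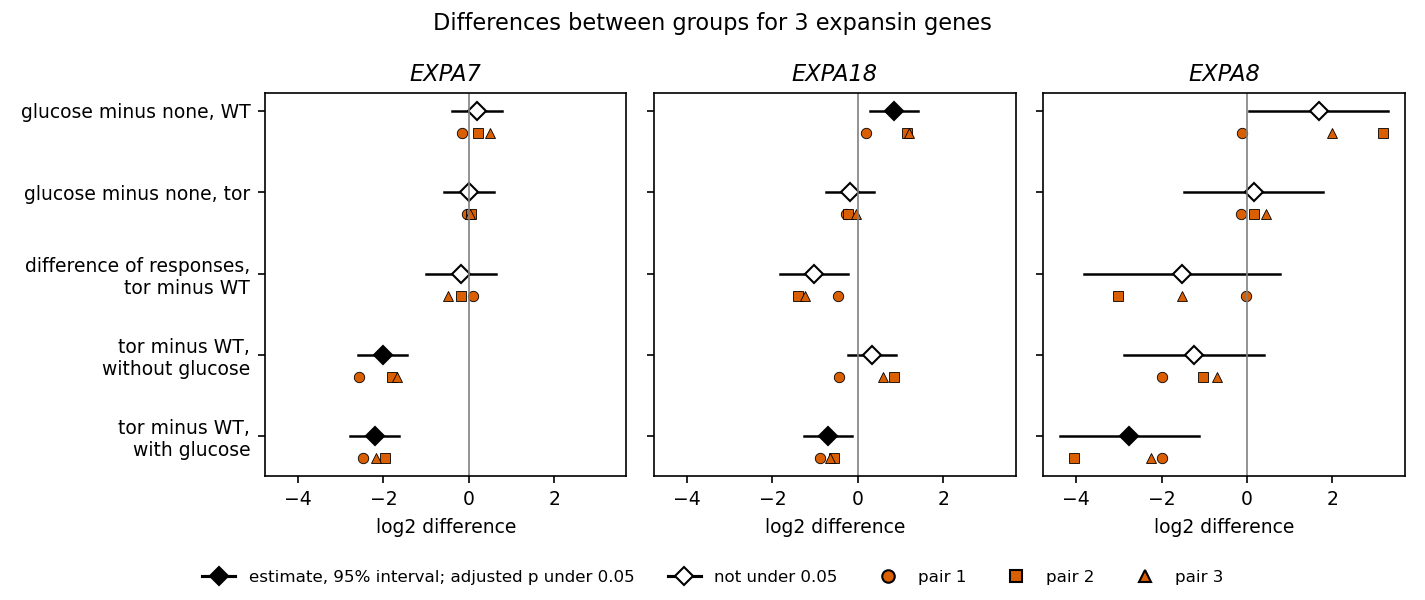
Log2 differences (horizontal axis) for the 5 comparisons of each gene: diamonds and lines are the estimate and 95% interval of the fit, filled where the adjusted p is under 0.05, and the orange points below them are the 3 same-numbered pairs. EXPA7 is called in both comparisons of the genotypes, EXPA18 for glucose in WT and for the genotypes with glucose, and EXPA8 for the genotypes with glucose. Pair 1 shows the smallest glucose response of all 3 genes in WT (-0.15, 0.20 and -0.12).

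In tor seedlings no probe set was called for glucose by limma (0.0% of 22746), and 313 had an unadjusted p under 0.05. EXPA7, EXPA18 and EXPA8 were not among the latter. The replicate block over all 12 arrays gave 0 calls too, but a blocked fit of just the 6 tor arrays called 20 probe sets (5 higher and 15 lower) and leaving out the arrays numbered 1 gave 2. None of the 3 expansins was called in either of these fits, which were chosen after the data were seen. The authors' deposited table gives, for glucose in WT, RMA log2 fold changes of 0.2 for EXPA7, 0.8 for EXPA18 and 1.7 for EXPA8. In the authors' deposited table the dChip fold changes, from another summary of the same arrays, were 0.3, 1.4 and 1.4. For tor the authors' deposited table gives RMA values of 0 for EXPA7, -0.2 for EXPA18 and 0.2 for EXPA8, and dChip values of -0.6, 0.1 and -0.3, so the signs differ between the summaries for EXPA18 and EXPA8.

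The 3 genes did not share 1 profile. Over the 12 arrays EXPA7 and EXPA8 correlated at Pearson's r = 0.65 (Spearman's rho = 0.62), a value that holds the genotype difference of both, and at -0.30 once group means were removed. EXPA7 and EXPA18 correlated at 0.41 (rho = 0.44), and at 0.86 once group means were removed. WT_none array 1 was the highest of its group for both. Over the 6 WT arrays their r was 0.78 and over the 6 tor arrays, where EXPA7 is dim, -0.31. EXPA18 and EXPA8 correlated at 0.41 (rho = 0.42) and at -0.08 without group means. These values describe 12 arrays that share 4 treatments and the replicate numbers.

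Among 5787 probe sets with 1 gene, a mean level of at least 5 and a range of at least 1, the profiles nearest to EXPA7 were those of AT2G41970 (r = 0.99, rho = 0.94), tny (r = 0.99, rho = 0.99), AT2G47540 (r = 0.99, rho = 0.99), AT4G26010 (r = 0.99, rho = 0.97) and AT1G74770 (r = 0.99, rho = 0.98). The gene tny encodes an AP2-type transcription factor. It lay at 8.80 in WT_none and 8.91 in WT_glucose, against 5.23 and 5.33 in tor. AT4G26010 lay at 6.93 and 7.76 in WT and at 4.04 and 4.22 in tor. Once group means were removed, r with EXPA7 lay between 0.80 (AT1G74770) and 0.99 (tny). In all, 496 of the 5787 reached r = 0.8 with EXPA7, against 73 with EXPA8 and 35 with EXPA18.

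For EXPA8 the nearest profiles were AT1G23200 (r = 0.94, rho = 0.92), XTH20 (r = 0.93, rho = 0.94), AT2G42760 (r = 0.93, rho = 0.92), AT5G63180 (r = 0.92, rho = 0.82) and AT3G08030 (r = 0.92, rho = 0.83). XTH20 is a xyloglucan endotransglucosylase/hydrolase gene, a family that cuts and rejoins the wall polymer xyloglucan. Its means were 5.51 in WT_none, 6.38 in WT_glucose, 4.53 in tor_none and 4.60 in tor_glucose. For EXPA18 they were AT1G75900 (r = 0.89, rho = 0.78), AT3G08820 (r = 0.89, rho = 0.83), AT3G22550 (r = 0.87, rho = 0.72), AT1G23180 (r = 0.86, rho = 0.75) and AT2G44300 (r = 0.86, rho = 0.69). The EXPA18 likenesses were the loosest of the 3 genes, and AT1G23180 had r = 0.66 after group means were removed.

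**Figure D3:**
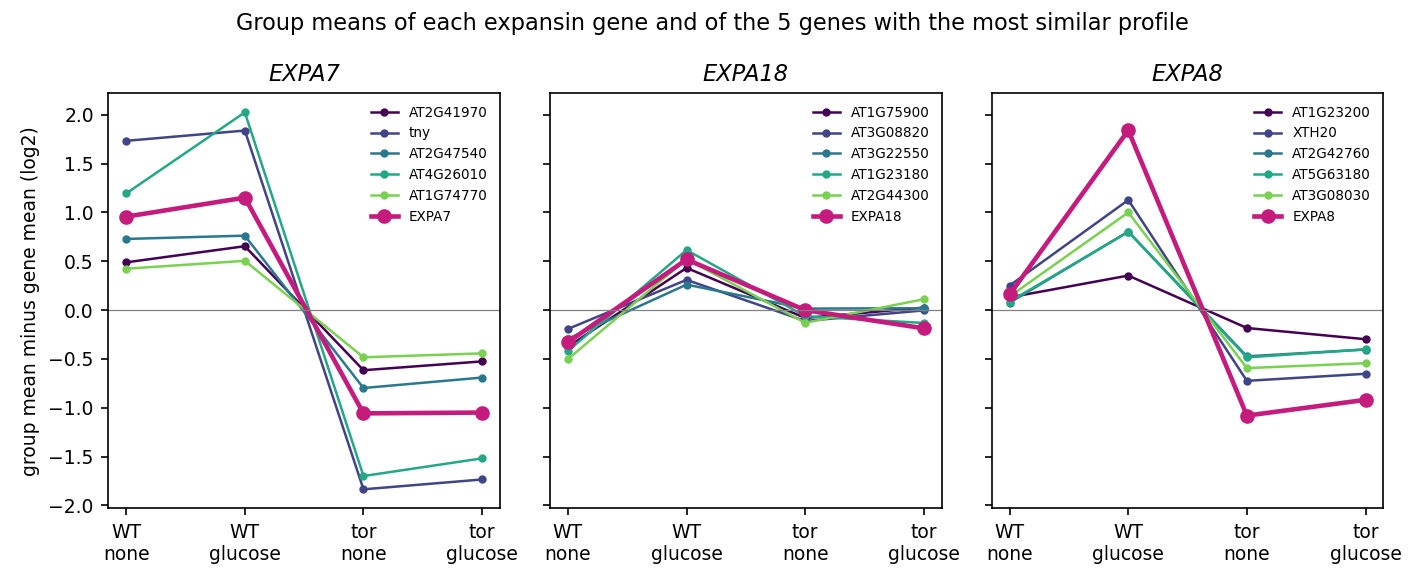
Mean log2 level of each group minus the mean over groups (vertical axis) for EXPA7, EXPA18 and EXPA8 (thick pink lines) and for the 5 genes with the highest r to each over 12 arrays (thin lines). The EXPA7 set steps down between the WT and tor groups, the EXPA18 set peaks in WT_glucose, and the EXPA8 set does both. AT2G42760 and AT5G63180 run almost on top of each other in the EXPA8 panel.

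Set among the family, 18 of the 36 expansin and expansin-like genes listed have a probe set of their own with a name here, and 13 of them lay at or above 5 in WT. With glucose in WT, 3 of the 18 rose, 2 fell and 13 were not called (7, 2 and 9 with the replicate block). With the block, 4296 of all 22746 probe sets were called higher and 3419 lower. The 5 calls without the block are close to the share over all probe sets (24.0%, with 13.5% higher and 10.5% lower), and the median change was 0.06 against -0.01 over all probe sets. Besides EXPA18 the rises were of EXPA15 (1.85 ± 0.22, adjusted p = 0.000285) and EXPB3, a beta-expansin (1.54 ± 0.34, adjusted p = 0.00818), both larger than the 0.85 of EXPA18. EXLA1 fell by 1.94 ± 0.44 on the log2 scale (adjusted p = 0.00906) and EXLB1 fell by 1.77 ± 0.51 (adjusted p = 0.0279), a call kept in 7 of the 12 fits that left out an array. These 2 are expansin-like genes, for which wall loosening has not been shown. The count of calls was 9 without the 4 arrays numbered 1, a setting chosen after the data were seen. In that setting the calls over all probe sets rose from 5454 to 6968.

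Without glucose 1 of the 18 was higher in tor, 3 were lower and 14 were not called, where 19.5% of all probe sets were called higher and 8.66% lower, with a median of -0.05 against 0.08 over all probe sets. The lower ones were EXPA7, EXPA16 (-1.70 ± 0.23, adjusted p = 0.000471) and EXPA4 (-1.03 ± 0.27, adjusted p = 0.0171). EXPA7 thus had the largest drop among the expansins in this comparison. With glucose 7 of 18 were lower in tor, 1 was higher and 10 were not called (8, 3 and 7 with the replicate block), with a median of -0.43 against 0.08. With the block, 4639 of all 22746 probe sets were called lower and 6926 higher. The 8 calls without the block are close to the overall share of 41.4%, which is made up of 16.0% lower and 25.4% higher. All 3 genes described above were among the 7, together with EXPA15 (-2.11 ± 0.22, adjusted p = 7.1e-05), EXPB3 (-1.76 ± 0.34, adjusted p = 0.00243), EXPA16 (-1.43 ± 0.23, adjusted p = 0.000794) and EXPA4 (-0.86 ± 0.27, adjusted p = 0.0273). Of the 12 fits that left out an array, 10 kept the EXPA4 call without glucose and 8 the one with it, while EXPA15, EXPA16, EXPB3 and EXLA1 kept theirs in all 12. EXLA1 was higher in tor by 2.69 ± 0.44 without glucose (adjusted p = 0.00146) and by 4.18 ± 0.44 with it (adjusted p = 7.62e-05). For the difference of the responses 1 of 18 was called, EXPA15 (-1.70 ± 0.31, adjusted p = 0.0144), and 2 with the replicate block. Over all probe sets 5.36% were called for this difference, and 3043 of 22746 with the block. In tor 0 of 18 were called for glucose by limma, and 1 had an unadjusted p under 0.05 (EXPA9, 1.02 ± 0.41).

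**Figure D4:**
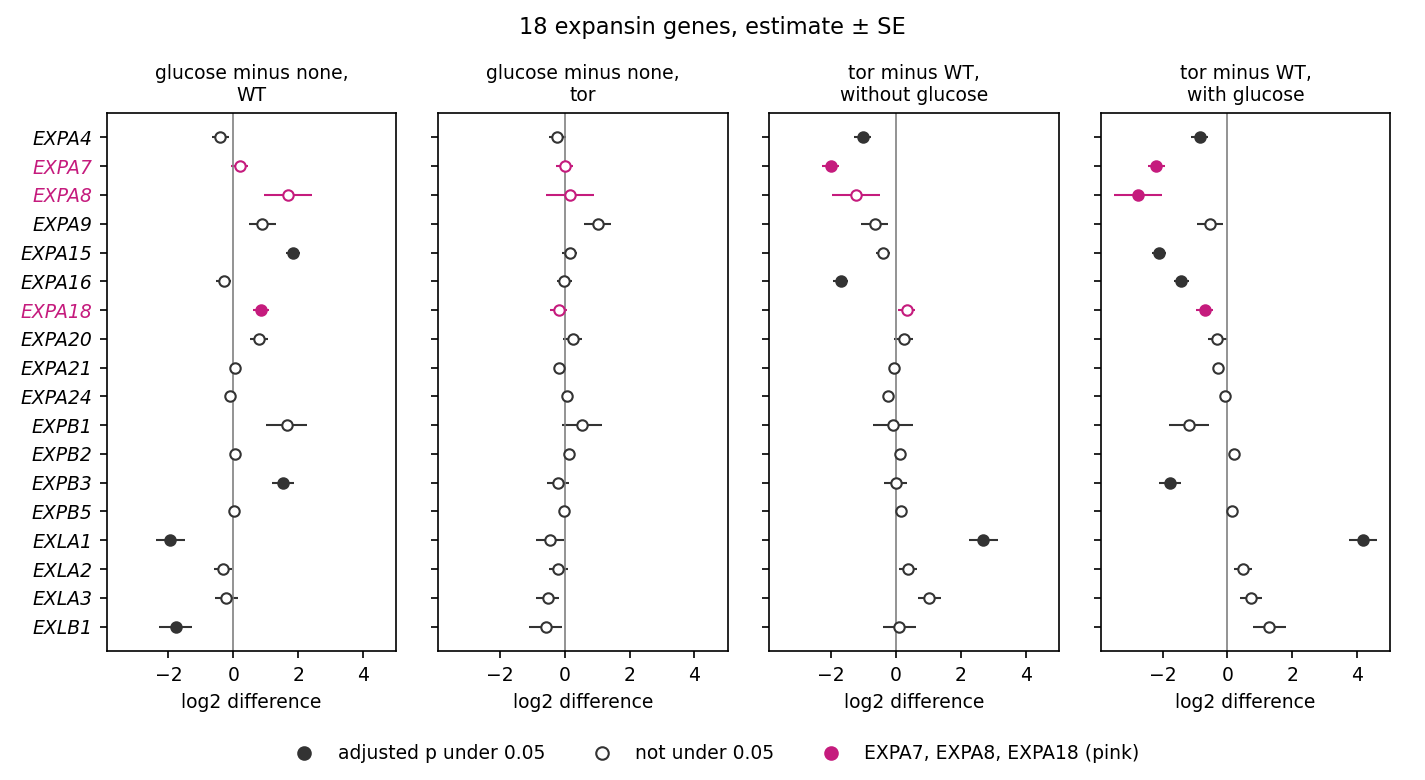
Log2 difference ± SE (horizontal axes) of the 18 expansin genes measured here in 4 comparisons, filled where the adjusted p is under 0.05, with EXPA7, EXPA8 and EXPA18 in pink. With glucose, 7 genes lie lower in tor and are called, and EXLA1 lies 4.18 higher. In the panel of glucose in tor no gene is called.

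Other wall genes with a name here included 10 of 33 listed xyloglucan endotransglucosylases. With glucose in WT, 2 of the 10 rose, XTH19 (2.54 ± 0.23, adjusted p = 8.13e-05) and XTH20 (0.88 ± 0.28, adjusted p = 0.0436), XTH27 fell by 1.07 ± 0.24, and 7 were not called, against 13.5% of all probe sets higher and 10.5% lower. The XTH20 rise was kept in 5 of 12 fits that left out an array. Without glucose 2 of the 10 were higher in tor (XTH16 by 1.25, XTH19 by 0.84, the latter kept in 8 of 12 fits) and 1 was lower, XTH20 (-0.98 ± 0.28, kept in 9 of 12), where 19.5% of all probe sets were called higher and 8.66% lower. With the replicate block 5 of the 10 were higher, XTH18, XTH21 and XTH33 being the additional ones (adjusted p = 0.0149, 0.026 and 0.022). XTH21 was dim in every group mean. The block called 5949 of all 22746 probe sets higher in this comparison. With glucose 2 were higher, XTH16 by 1.33 and XTH33 by 0.89 (kept in 4 of 12), and 2 lower, XTH19 (-1.42 ± 0.23) and XTH20 (-1.78 ± 0.28), the gene close to EXPA8 in profile (3 and 3 with the block). Over all probe sets 25.4% were called higher and 16.0% lower, and with the block 6926 and 4639 of 22746. For the difference of the responses 1 of the 10 was called, where 5.36% of all probe sets were called. The response of XTH19, which was dim in WT_none (3.95) and tor_none (4.79), differed between the genotypes by -2.26 ± 0.33 (adjusted p = 0.00567). That of XTH20 differed by -0.80, uncalled (adjusted p = 0.303) except with the block (adjusted p = 0.0466). Of 3 wall synthesis and sensing genes, CSLC4, a synthase of the xyloglucan backbone, rose in WT (0.74 ± 0.23, kept in 3 of 12) and was higher in tor by 2.07 without and 1.37 with glucose. THE1, a receptor kinase that monitors the wall, fell in WT (-0.44 ± 0.12, kept in 7 of 12) and was lower in tor (-0.71 and -0.40, the latter kept in 9 of 12). FER, a related receptor kinase, was called only with the block, for glucose in WT (-0.56, adjusted p = 0.00687) and in tor without glucose (-0.36, adjusted p = 0.0475).

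Root hair genes other than the expansins were mostly without a named probe set here. Of 18 root hair regulators listed 1 was measured: TRY, a small MYB protein of hair patterning. It was higher in tor by 0.63 without and 0.67 with glucose, by 0.39 without glucose once arrays were centred (adjusted p = 0.0784), and changed by -0.22 with glucose in WT without a call. Of 45 listed genes of hair growth 3 were measured. SCN1, a RhoGDI that confines hair outgrowth to a single site, fell with glucose in WT (-0.89 ± 0.13). Its genotype differences moved with the scaling: without glucose -0.25, not called, or -0.49 with arrays centred (adjusted p = 0.0124), and with glucose 0.42 (kept in 8 of 12 fits) or 0.24 with arrays centred (adjusted p = 0.131). CSLD2, a cellulose synthase-like gene of hair growth, was not called in the 5 comparisons, but with the replicate block it was higher in tor by 0.54 without glucose (adjusted p = 0.0331) and by 0.68 with it (adjusted p = 0.00902). XTH26 was dim in every group mean. The genotype difference of EXPA7 (-2.01 without glucose) was therefore larger than that of any of these 4 genes, the nearest in size being TRY. With glucose in tor the smallest p in each list belonged to TRY (-0.18), SCN1 (-0.22), XTH19 (0.28), THE1 (-0.13) and LHCB4.1 (0.06), none of them called.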

How the data were processed

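Expression was measured on 12 single-colour probe-set arrays, 3 in each of 4 groups taken from the titles. The deposited log2 values are RMA summaries, per the submitters' processing notes (whether all arrays were summarised together is unstated). The authors' deposited table adds p-values and fold changes rounded to 1 decimal, with the test behind them unstated. The 64 controls among 22810 probe sets were dropped and 22746 were tested, with 1 missing value that touches no gene named here. Platform annotation gives 13513 probe sets 1 gene. A model with 1 mean per group over all 12 arrays was fitted in limma 3.58.1 (lmFit, eBayes; R 4.3.3), and p-values were adjusted by Benjamini-Hochberg over all probe sets. It was tested on simulated data. The 4 groups share 1 estimate of the spread per gene. An SE therefore also holds the scatter of groups outside its comparison. Same-numbered arrays deviated together (18 pairs, r from 0.199 to 0.863), so the replicate number was also fitted as a block. Arrays without counts give no depth, and the number of arrays limits the precision. The genes and lists were chosen with earlier results of these data known. Genes named were the 3 expansins, their 5 nearest profiles each, measured expansins, and of each other list up to 4 called members with the largest change or else the member with the smallest p. XTH18, XTH21, XTH26, CSLD2 and FER, and values of a gene in comparisons where this rule does not pick it, were added after their values were seen.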

Additional observations from a re-analysis of the deposited data

Results flagged for a closer look

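The estimated difference of the EXPA18 responses to glucose was -1.03 on the log2 scale: every same-numbered pair was up in WT and every pair was down in tor. The changes in tor were small (-0.27, -0.24 and -0.05) and not called. The authors' dChip summary of the same arrays gave 0.1 for EXPA18 in tor, the other sign. The limma test of the difference missed the threshold after adjustment (adjusted p = 0.13). For 2 related wall genes the same test passed, at -1.70 for EXPA15 and at -2.26 for XTH19, both with the smaller response in tor. They were 1 of 18 expansins and 1 of 10 xyloglucan endotransglucosylases, and 5.36% of all probe sets passed. The means of XTH19 without glucose were dim in both genotypes. Groups of 3 arrays are too small for a test of single outlying arrays.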

How the results depend on the processing

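EXPA7 kept both genotype calls in all alternatives run, which besides the left-out arrays were centred arrays, a minimum mean level of 5, a trended and robust eBayes, the replicate block, the compared groups alone with and without the block, and, chosen after the data were seen, all 4 arrays numbered 1 left out. EXPA8 kept its call with glucose likewise (adjusted p = 0.00136 to 0.0404). With arrays centred, EXPA7 changed by -0.014 with glucose in tor and EXPA18 by 0.76 in WT (adjusted p = 0.0577). With the compared groups alone the EXPA18 rise of 0.85 had adjusted p = 0.0957. The EXPA18 genotype difference with glucose (-0.71) was called in that setting (adjusted p = 0.00586). It was lost only in fits that left out a single array. The replicate block gave EXPA8 a called rise in WT of 1.68 (adjusted p = 0.026), and 1.68 (adjusted p = 0.0262) when blocked within genotype, but not with the WT arrays alone and the block (adjusted p = 0.0828). The block within genotype also called the EXPA18 difference of responses of -1.03 (adjusted p = 0.0273). With the compared groups alone and the block, EXPA8 was called lower in tor without glucose (-1.24, adjusted p = 0.0194). Without the arrays numbered 1, calls were gained for the EXPA18 difference of responses (-1.32), EXPA18 in tor without glucose (0.71) and EXPA8 with glucose in WT (2.58).

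Leaving out each array in turn, the EXPA7 change ran from -0.0028 to 0.55 in WT, from -0.038 to 0.084 in tor and from -0.54 to 0.011 for their difference. That of EXPA18 ran from 0.60 to 1.22 in WT, from -1.41 to -0.79 for the difference, from 0.086 to 0.70 between genotypes without glucose and from -0.79 to -0.66 with it. That of EXPA8 ran from 0.72 to 2.43 in WT, from -0.16 to 0.53 in tor and from -2.27 to -0.56 for the difference. The TRY difference of responses ran from -0.047 to 0.19. The causes of these changes were not tested. Expansin calls in WT numbered 5, or 9 with the block, 10 with the block within genotype, 8 with the compared groups and the block, 9 without the arrays numbered 1 and 3 to 8 with an array left out. Calls over all 22746 probe sets rose too, from 5454 to 7715, 8903, 6907 and 6968 in the same order up to the arrays numbered 1. With an array left out the calls over all probe sets ran from 3699 to 5949. For the difference the expansin calls numbered 1, or 2, 5 and 6 with the block, the block within genotype and the arrays numbered 1 left out, and 1 to 4 with an array left out. Between genotypes the 4 calls without glucose became 7 and the 8 with glucose became 13 without the arrays numbered 1, and 3 to 6 and 6 to 9 with an array left out. Without the arrays numbered 1, the calls over all probe sets rose from 6408 to 7667 without glucose and from 9418 to 10309 with it. With an array left out they ran from 4273 to 6856 and from 7154 to 9802. Over all probe sets the block raised the calls for the difference from 1220 to 3043. They numbered 4555 with the block within genotype and 2936 without the arrays numbered 1, and ran from 477 to 1828 with an array left out. The block changed no other call of the 3 genes. The block within genotype was not run for the genotype comparisons, and the compared groups alone were not run for the difference. Signal over background was not measured, which limits EXPA7 in tor, EXPA18 in WT_none and EXPA8 in tor, all with dim arrays.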
